A study of Homo sapiens with 18 samples.

Results

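MCF-10A cells carrying a retroviral TRA2B construct (TRA2B-OE) were compared with MCF-10A cells carrying the empty PWZL vector (Control), across all genes. MCF-10A is an established, non-tumorigenic line of human breast epithelium that forms hollow, acinus-like spheres in a basement membrane gel. Both groups expressed their construct stably, were grown in matrigel for 8 days, and were taken out of the gel before RNA was extracted for poly(A) RNA sequencing. Each group has 3 deposited samples, but in both of them replicates 1 and 2 are lanes of a single library, so the comparison rests on 4 libraries (6 samples) out of the 14 libraries (18 samples) of the series. The other 10 libraries carry SRSF2, SRSF4, SRSF6 or SRSF9 in the same vector system (SRSF2-OE, SRSF4-OE, SRSF6-OE and SRSF9-OE). No source used here says whether libraries came from separate cultures or infections; the p-values then measure only how far these libraries differ, and that may be technical.

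The libraries fall into a set whose labels start with LID and a set labelled with digits only. TRA2B-OE replicates 1-2 and Control replicates 1-2 are LID libraries, and replicate 3 of each is a numeric one. Values are therefore given as a pair for each group, the LID library first and the numeric library after it. Levels are in CPM, counts scaled to the size of each library with TMM normalization, and they compare libraries for one gene and not genes with each other. Total counts were 92111707 and 52250764 in TRA2B-OE, against 121601376 and 49132413 in Control. Mitochondrially encoded genes took 9.18% and 14.3% of counts in TRA2B-OE, against 11.96% and 7.64% in Control. Basal mammary epithelial markers were high: KRT5 had 7079 and 20009 CPM in TRA2B-OE, against 9094 and 13012 CPM in Control, and TP63 had 113 and 255 CPM in TRA2B-OE, against 181 and 211 CPM in Control. Of 7 luminal markers 3 were well expressed as well: KRT8 had 166 and 143 CPM in TRA2B-OE, against 176 and 103 CPM in Control, KRT18 had 199 and 130 CPM in TRA2B-OE, against 92.6 and 117 CPM in Control, and MUC1 had 116 and 38.2 CPM in TRA2B-OE, against 186 and 81.0 CPM in Control. EPCAM ran from 1.34 to 4.41 CPM, KRT19 and the hormone receptor gene ESR1 were at most 1.25 CPM, and PGR was at 0 in 3 of the 4 libraries. The summed fibroblast markers were at 410 and 180 CPM in TRA2B-OE, against 550 and 263 CPM in Control, nearly all of it COL1A1 and DCN, while COL1A2 was at 0. Leukocyte markers summed to 0.538 and 1.20 CPM in TRA2B-OE, against 0.948 and 1.33 CPM in Control, most of it CD68. Adipocyte markers summed to 3.21 and 1.73 CPM in TRA2B-OE, against 1.58 and 1.65 CPM in Control; ADIPOQ was at 0, and PLIN1 had 3.04 and 0.749 CPM in TRA2B-OE, against 1.39 and 0.765 CPM in Control.

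TRA2B is a serine/arginine-like splicing factor that binds purine-rich enhancers inside exons and favours inclusion of those exons in the mature transcript. It acts together with the SR proteins (the SRSF family), and it limits its own level through an exon that brings stop codons into its transcript. It is amplified or overexpressed in several epithelial cancers. Gene-level counts show how much transcript a gene gives, not which exons it holds.

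The results turn on genes of sterol synthesis and of cell division, so a few of their promoters are shown first, as the 250 bases before the annotated start in RefSeq's GRCh38.p14 tables. Capitals mark a CCAAT box, CCAAT or its reverse complement ATTGG, in FDPS at chr1:155308616-155308865 (+ strand) and MVD at chr16:88663092-88663341 (- strand); NF-Y, which binds this box, is a known partner of the sterol regulator SREBP. In MYBL2 at chr20:43666864-43667113 (+ strand) and CDC45 at chr22:19479670-19479919 (+ strand), capitals mark GGCGGGA, a core that fits E2F factors, which drive genes of S phase.
FDPS: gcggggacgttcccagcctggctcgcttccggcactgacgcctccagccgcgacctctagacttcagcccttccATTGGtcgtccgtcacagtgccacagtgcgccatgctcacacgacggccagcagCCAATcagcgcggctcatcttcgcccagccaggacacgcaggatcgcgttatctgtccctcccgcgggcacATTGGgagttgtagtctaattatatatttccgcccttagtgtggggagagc
MVD: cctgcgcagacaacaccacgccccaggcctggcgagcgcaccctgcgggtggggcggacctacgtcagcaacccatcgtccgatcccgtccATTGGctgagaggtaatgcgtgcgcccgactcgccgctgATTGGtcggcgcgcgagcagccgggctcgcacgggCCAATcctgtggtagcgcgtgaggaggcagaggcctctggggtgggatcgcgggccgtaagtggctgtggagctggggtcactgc
MYBL2: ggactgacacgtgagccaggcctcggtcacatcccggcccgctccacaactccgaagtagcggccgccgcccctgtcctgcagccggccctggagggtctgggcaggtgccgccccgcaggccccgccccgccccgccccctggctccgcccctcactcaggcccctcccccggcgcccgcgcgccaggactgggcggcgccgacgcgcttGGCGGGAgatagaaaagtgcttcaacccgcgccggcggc
CDC45: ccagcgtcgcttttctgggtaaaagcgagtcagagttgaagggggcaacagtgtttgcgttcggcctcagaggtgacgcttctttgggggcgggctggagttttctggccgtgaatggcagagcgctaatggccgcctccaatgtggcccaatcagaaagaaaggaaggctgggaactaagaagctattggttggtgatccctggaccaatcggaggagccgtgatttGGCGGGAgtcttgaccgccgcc
The FDPS and MVD promoters hold 3 CCAAT boxes each. The CDC45 promoter holds CCAAT boxes as well, left in small letters above, so the box is not particular to the sterol promoters. Counting both strands, 15 of the 18 sterol genes found in the table had at least 1 CCAAT box (83.3%), as did 19 of 25 mitosis genes (76.0%) and 15 of 24 replication genes (62.5%), against 33.0% of 27305 promoters. GGCGGGA or its reverse complement TCCCGCC stood in 14 of 24 replication genes (58.3%), 8 of 18 sterol genes (44.4%) and 5 of 25 mitosis genes (20%), against 13.6% of all promoters. A CCAAT box read on the reverse strand can share bases with GGCGGGA, and both were then counted. A match is a description of these letters, not of a bound site. The 27305 promoters are all those counted, not a set matched to these lists in expression.

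TRA2B itself had 201 and 147 CPM in TRA2B-OE, against 106 and 105 CPM in Control. Both TRA2B-OE libraries were above both Control libraries, with a mean of 174 ± 38.3 CPM in TRA2B-OE and 105 ± 0.696 CPM in Control (SD, n = 2 libraries each). The fitted log2 fold change was 0.71 ± 0.16 (SE); it passed the threshold of an adjusted p under 0.05 in DESeq2 (adjusted p = 0.00472) and not in edgeR's quasi-likelihood test (adjusted p = 0.169). The other overexpression libraries, which did not receive TRA2B, had 128 to 168 CPM. TRA2B-OE replicate 3 thus lay inside their range and TRA2B-OE replicates 1-2 above it. The counts do not separate transcripts of the construct from those of the cell's own gene.

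**Figure D1:**
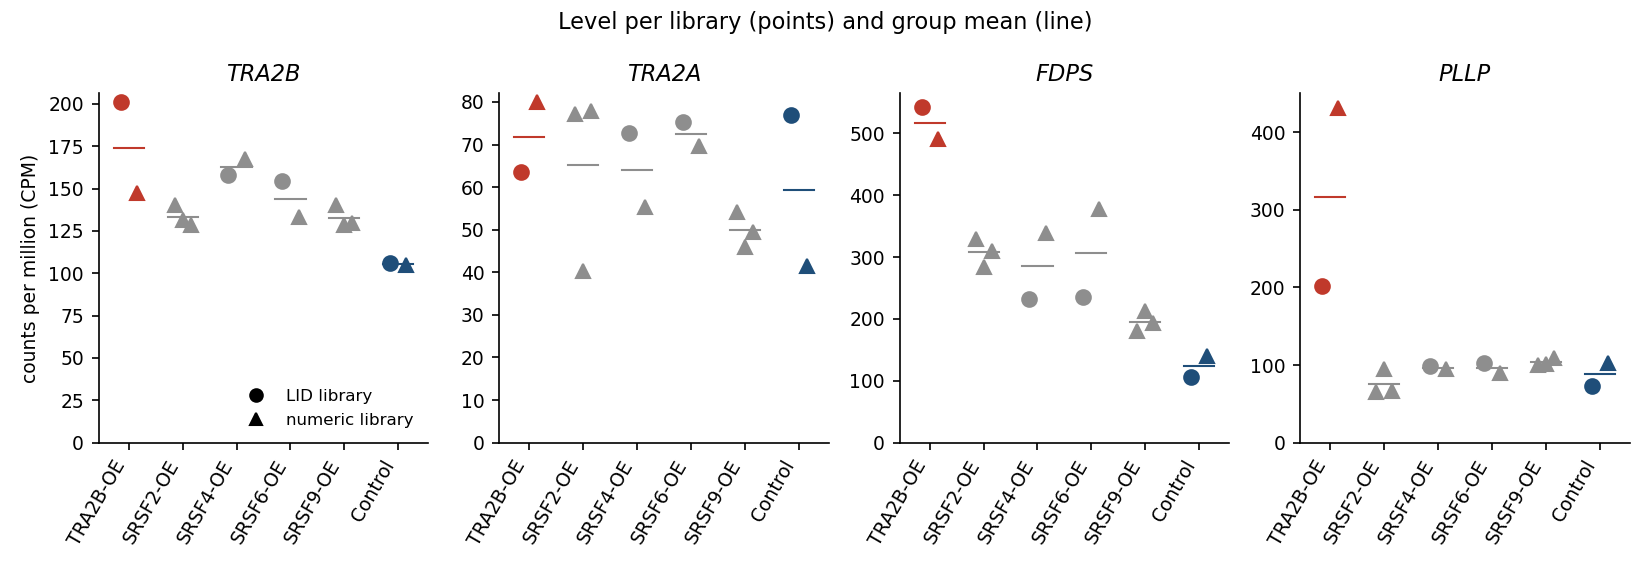
Level in CPM (y axis, from 0) of TRA2B, its paralogue TRA2A, FDPS and PLLP in each of the 14 libraries (x axis, by group); circles are LID libraries, triangles numeric ones, and lines group means. TRA2B at 147 CPM in TRA2B-OE replicate 3 lies inside the 128 to 168 CPM of the other overexpression libraries, whereas FDPS and PLLP are above all other libraries in both TRA2B-OE libraries.

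Across the genome, the main test (edgeR, all 14 libraries, group and label set as terms) called 2 of 21326 genes higher in TRA2B-OE (0.00938%) and 0 lower (0%). At an unadjusted p under 0.05 there were 2559 genes, 1412 of them higher and 1147 lower. DESeq2 on the same counts and terms called 270 genes higher (1.27%) and 182 lower (0.853%), and in 447 of those 452 both TRA2B-OE libraries lay on the same side of both Control libraries. The calls rest on these same libraries, so the 447 are no separate check of them. Without TRA2B-OE replicate 3 edgeR called 14 and 0 genes and DESeq2 464 and 293, and without TRA2B-OE replicates 1-2 they called 0 and 0 genes and 77 and 115. Without Control replicates 1-2 edgeR called 0 and 0 and DESeq2 16 and 27, and without Control replicate 3 they called 0 and 0 and 414 and 203. Over all genes, 18.3% had both TRA2B-OE libraries above both Control libraries and 18.2% had both below. The difference between TRA2B-OE and Control in the LID pair and that in the numeric pair had a Pearson r of 0.033 across the 21326 genes, and of 0.042 across the 12815 genes with a mean of at least 3 CPM. The genes of a library share its depth and handling, so r describes these 4 libraries only.

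**Figure D2:**
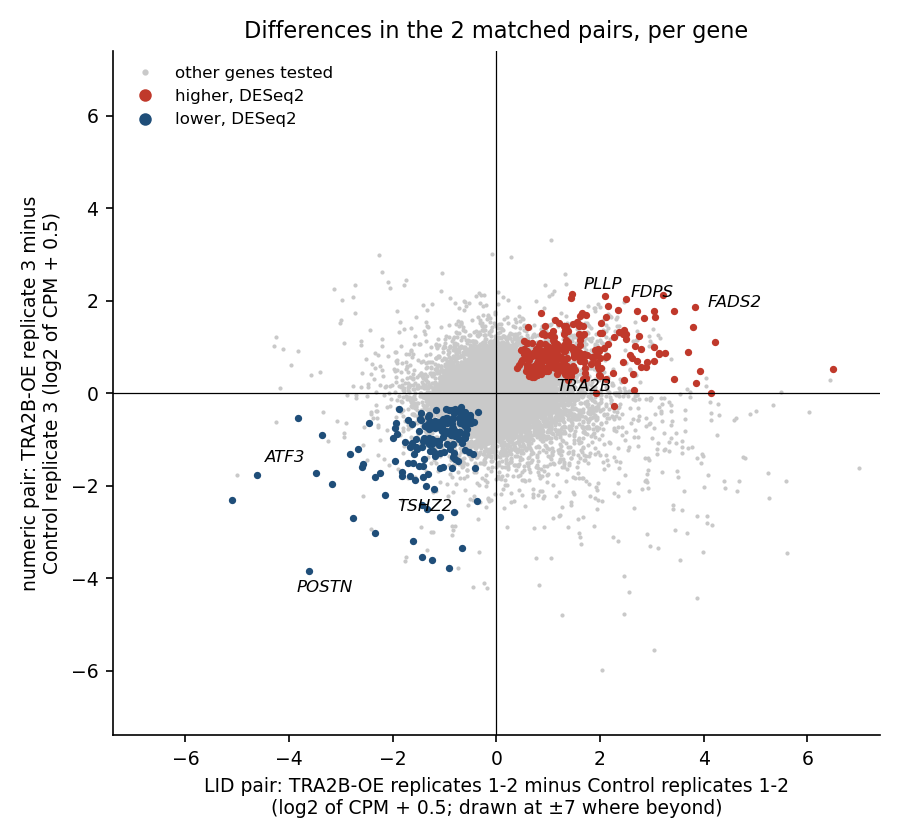
Each point is a gene: x is the log2 difference between TRA2B-OE replicates 1-2 and Control replicates 1-2, y that between TRA2B-OE replicate 3 and Control replicate 3, both on log2(CPM + 0.5). Genes past DESeq2's threshold (270 higher, 182 lower) sit where both pairs have one sign, with the exception of 1 gene, while the cloud of all genes shows almost no slope (r = 0.033). They were called on these same libraries, so their shared sign is no separate check.

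The TRA2B-OE libraries were not each other's nearest libraries. On log2(CPM + 0.5) over genes, TRA2B-OE replicate 3 had r = 0.996 with SRSF2-OE replicate 1 and 0.968 with TRA2B-OE replicates 1-2. TRA2B-OE replicates 1-2 had their highest r, 0.989, with SRSF6-OE replicates 1-2. Nor was this particular to TRA2B-OE: Control replicate 3 had r = 0.995 with SRSF9-OE replicate 1 and 0.980 with Control replicates 1-2. SRSF2, the gene introduced in SRSF2-OE, had 258 and 224 CPM in TRA2B-OE, against 204 and 176 CPM in Control. The libraries labelled SRSF2-OE had 214, 396 and 310 CPM of SRSF2, the 214 CPM in replicate 1. TRA2B-OE replicate 3 and SRSF2-OE replicate 1 thus lay close together both in TRA2B (147 and 140 CPM) and in SRSF2 (224 and 214 CPM), and the introduced gene marks neither of them out from the libraries of the other factors. The introduced gene therefore does not vouch for the label of TRA2B-OE replicate 3 or for that of SRSF2-OE replicate 1. Whether these labels are right was not tested. Other genes differed between TRA2B-OE replicate 3 and SRSF2-OE replicate 1. PLLP, above all other libraries in both TRA2B-OE libraries, had 202 and 432 CPM there and 65.7 CPM in SRSF2-OE replicate 1. FDPS, likewise above them, had 543 and 490 CPM in TRA2B-OE and 330 CPM in SRSF2-OE replicate 1. Each direction that rests on TRA2B-OE replicate 3 carries the limit of its label. Medians without that library are given for the sterol, mitosis, DNA replication and NF-kB lists, and not for the fatty acid or other lists.

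TRA2A, the paralogue that can take over from TRA2B, had 63.6 and 80.0 CPM in TRA2B-OE, against 77.0 and 41.4 CPM in Control, and the groups overlapped. Of the 12 SR family genes tested besides TRA2B, TRA2A among them, 0 passed either test, and SRSF8 had no count in any library; 3 were higher and 1 was lower in both TRA2B-OE libraries than in both Control libraries. SRSF3, a small SR protein, had 245 and 214 CPM in TRA2B-OE, against 186 and 155 CPM in Control. SRSF1 had 232 and 182 CPM in TRA2B-OE, against 147 and 146 CPM in Control. SRSF12, a weakly expressed member, had 1.27 and 0.729 CPM in TRA2B-OE, against 1.98 and 1.88 CPM in Control. None of 8 genes with exons known to respond to TRA2B passed a test at the gene level. Non-overlapping values were higher for 1 of the 8 and lower for 2, where 18.3% and 18.2% of all genes had them. NASP, a histone chaperone, was the higher one, at 90.6 and 85.3 CPM in TRA2B-OE against 54.9 and 58.8 CPM in Control. HIPK3, a protein kinase, had 96.9 and 104 CPM in TRA2B-OE, against 149 and 112 CPM in Control, and MAPT, the gene of the microtubule protein tau, had 1.01 and 1.06 CPM in TRA2B-OE, against 1.45 and 1.69 CPM in Control. Among 26 other splicing regulators and 8 SR kinases and partners none passed either; CLK1, which phosphorylates SR proteins, had 90.8 and 111 CPM in TRA2B-OE, against 219 and 123 CPM in Control.

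FDPS rose. This enzyme makes farnesyl pyrophosphate, the branch point between cholesterol and protein prenylation, and is the target of bisphosphonate drugs. FDPS had 543 and 490 CPM in TRA2B-OE, against 106 and 140 CPM in Control, and its fitted log2 fold change was 2.10 ± 0.21 (SE, edgeR adjusted p = 0.0134). Both TRA2B-OE libraries were above all 12 other libraries, of which the 10 of the other factors had 181 to 378 CPM. Without TRA2B-OE replicate 3 its log2 fold change was 2.41 (edgeR adjusted p = 0.00764), and without TRA2B-OE replicates 1-2 it was 1.75 (edgeR adjusted p = 0.0729). Without Control replicates 1-2 the adjusted p was 0.383, and without Control replicate 3 it was 0.0844. RUSC1-AS1, which GENCODE 29 places on the opposite strand over FDPS exons, was the other gene called, at 279 and 267 CPM in TRA2B-OE against 62.5 and 72.5 CPM in Control (log2 fold change 2.03 ± 0.19, SE, edgeR adjusted p = 0.0134). RUSC1-AS1 counts were 0.514 to 0.589 of FDPS counts in all 14 libraries. The kit marks strand, but the sources used here do not say whether counting used it, so reads of FDPS and RUSC1-AS1 cannot be told apart.

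Sterol synthesis was the list with the most called members. SREBP2 (the SREBF2 product) switches these genes on when membrane cholesterol is low. Of 23 members 21 passed the filter on low counts. All of these 21 had a positive log2 fold change; 1 passed edgeR and 11 passed DESeq2, all higher, and 18 had both TRA2B-OE libraries above both Control libraries, where 1.27% and 18.3% of all genes did. Their median log2 fold change was 1.10, against -0.00065 over all genes tested, with 1.45 in the LID pair and 0.60 in the numeric pair. It was 0.69 without TRA2B-OE replicates 1-2, 1.47 without TRA2B-OE replicate 3, 0.83 without Control replicates 1-2 and 1.44 without Control replicate 3. Against the other overexpression groups the median was 0.27.
Among the early mevalonate enzymes, HMGCS1, which condenses acetyl units, passed DESeq2 and had 234 and 92.9 CPM in TRA2B-OE, against 53.7 and 54.2 CPM in Control. MVD, which makes the isoprene unit, had 107 and 66.2 CPM in TRA2B-OE, against 15.5 and 27.9 CPM in Control (log2 fold change 2.04 ± 0.32, SE, DESeq2 adjusted p = 6.6e-06, edgeR adjusted p = 0.0883). Of the enzymes after FDPS, SQLE and DHCR7 also passed DESeq2. SQLE, the squalene epoxidase, had 340 and 275 CPM in TRA2B-OE, against 103 and 189 CPM in Control. DHCR7, the last step of one cholesterol branch, had 147 and 128 CPM in TRA2B-OE, against 17.4 and 63.7 CPM in Control. Of the regulators, INSIG1, which holds SREBP back, had 74.6 and 43.3 CPM in TRA2B-OE, against 12.7 and 17.5 CPM in Control, and passed DESeq2 (adjusted p = 0.00321). SREBF2 had 249.2 and 386 CPM in TRA2B-OE, against 190 and 332 CPM in Control, with overlapping groups. LSS and STARD4 were lower in TRA2B-OE within the numeric pair and higher within the LID pair.

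Genes of fatty acid synthesis and desaturation, a list added after the values were seen, were also mostly higher. Of 10 tested, 4 passed DESeq2, all higher, where 1.27% of all genes were called higher. The median log2 fold change was 1.07, with 1.45 in the LID pair and 0.52 in the numeric pair. Against the other overexpression groups the list's median was 0.03. FADS2, a desaturase of polyunsaturated fatty acids, had 122 and 98.1 CPM in TRA2B-OE, against 8.10 and 26.5 CPM in Control (log2 fold change 2.87 ± 0.54, SE, DESeq2 adjusted p = 2.2e-05, edgeR adjusted p = 0.121). Its neighbour in the pathway FADS1 had 88.4 and 77.9 CPM in TRA2B-OE, against 16.6 and 30.8 CPM in Control. FASN, the fatty acid synthase, had 786 and 1082 CPM in TRA2B-OE, against 282 and 384 CPM in Control. SCD, the stearoyl desaturase, had 667 and 462 CPM in TRA2B-OE, against 112 and 325 CPM in Control, without passing either test. Both Control libraries lay below both TRA2B-OE libraries for each of these genes, and the other overexpression libraries ran from 38.5 to 114 CPM for FADS2, 37.1 to 76.8 CPM for FADS1, 478 to 1082 CPM for FASN and 426 to 1536 CPM for SCD. FADS1 alone of these 4 was above all of them in both TRA2B-OE libraries.

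Genes of mitosis had the highest median of all lists and no member called. All 30 had a positive log2 fold change with a median of 1.50, 1.70 in the LID pair and 1.26 in the numeric pair. Both TRA2B-OE libraries were above both Control libraries for 28 of them, where 18.3% of all genes had this, and 0 passed edgeR or DESeq2. MKI67, the Ki-67 antigen of dividing cells, had 98.0 and 256 CPM in TRA2B-OE, against 17.3 and 65.5 CPM in Control. PLK1, the mitotic kinase, had 43.9 and 97.6 CPM in TRA2B-OE, against 10.9 and 25.3 CPM in Control (log2 fold change 1.98 ± 0.65, SE, DESeq2 adjusted p = 0.0574). AURKA, which builds the spindle, had 42.5 and 53.2 CPM in TRA2B-OE, against 10.9 and 21.7 CPM in Control. The libraries of each group differed widely: the list's mean level on log2(CPM + 0.5) was 5.37 and 6.20 in TRA2B-OE, against 3.72 and 4.89 in Control, and the other overexpression libraries ran from 3.75 to 6.03. In bulk RNA, more dividing cells and more of these transcripts per cell cannot be told apart. Without TRA2B-OE replicates 1-2 the list's median was 1.61, without TRA2B-OE replicate 3 it was 1.30, without Control replicates 1-2 it was 1.15, and without Control replicate 3 it was 1.999.

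DNA replication genes followed the same order. All 27 had both TRA2B-OE libraries above both Control libraries, where 18.3% of all genes did. Of these 27, 4 passed DESeq2, all higher, where 1.27% of all genes were called higher, and 0 passed edgeR. The median log2 fold change was 1.01, with 1.68 in the LID pair and 0.76 in the numeric pair. The list's median against the other overexpression groups was 0.36. On the scale used for mitosis, the list's mean level was 4.88 and 4.94 in TRA2B-OE, against 3.18 and 4.11 in Control. The other overexpression libraries ran from 3.59 to 5.05, so both TRA2B-OE libraries lay inside their range. RRM2, which makes deoxynucleotides, had 79.9 and 88.1 CPM in TRA2B-OE, against 6.98 and 25.3 CPM in Control. CDC45, part of the replicative helicase, had 15.7 and 18.6 CPM in TRA2B-OE, against 1.46 and 5.12 CPM in Control (log2 fold change 2.49 ± 0.60, SE, DESeq2 adjusted p = 0.00209). UHRF1, which carries DNA methylation through replication, and CDT1, which licenses origins, were the other members called. Without TRA2B-OE replicates 1-2 the list's median against Control was 1.02, and without TRA2B-OE replicate 3 it was 1.25. Without Control replicates 1-2 it was 0.73, and without Control replicate 3 it was 1.69. Ribosome biogenesis genes moved less, with a median of 0.39 and 1 of 25 called by DESeq2, NOP56, a box C/D nucleolar protein, at 284 and 206 CPM in TRA2B-OE against 132 and 137 CPM in Control.

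**Figure D3:**
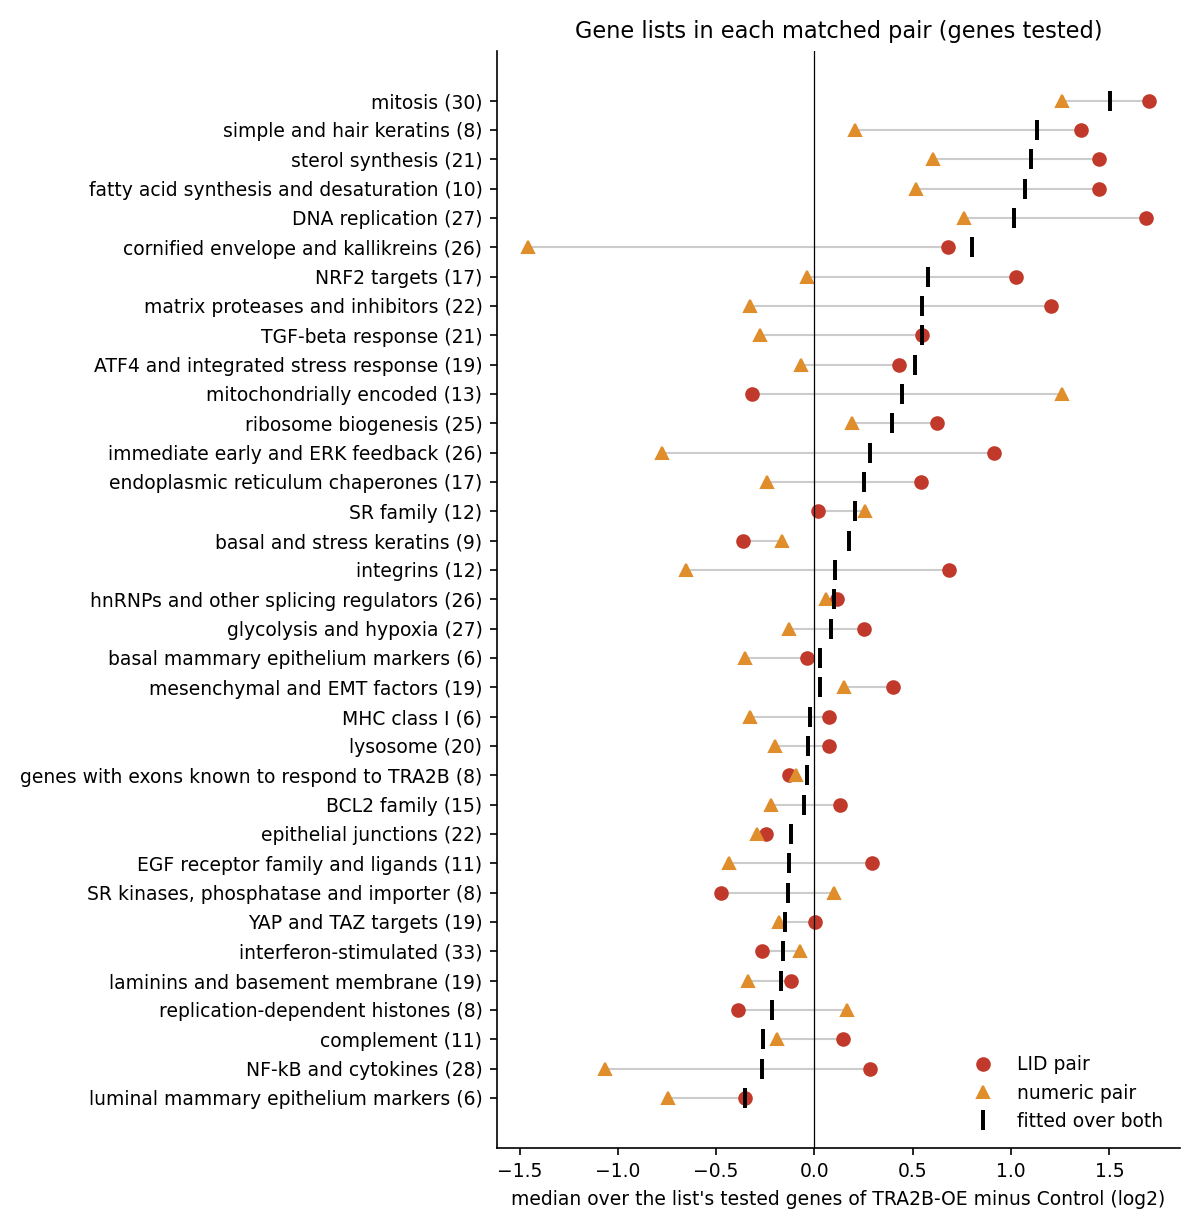
Median log2 difference between TRA2B-OE and Control over the tested genes of each list (y axis, number tested in brackets), in the LID pair (circles), in the numeric pair (triangles) and as fitted over both (bars). Mitosis, sterol synthesis, fatty acid and DNA replication genes lie above 0 in both pairs, while integrins, NF-kB and cytokine genes and cornified envelope genes change sign between the pairs.

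Since edgeR called fewer than 12 genes in either direction, the 12 genes with the largest higher and lower values were taken from DESeq2's calls with a mean of at least 3 CPM and non-overlapping groups (216 higher, 138 lower). The higher ones were MYBL2, KIF18B, WDR62, RUSC1-AS1, FADS2, FDPS, MXRA8, RRM2, CDC45, SH3BGRL3, CD14 and TICRR. MYBL2, a transcription factor of the cell cycle, had 32.0 and 44.7 CPM in TRA2B-OE, against 2.99 and 9.85 CPM in Control. WDR62, a spindle pole protein, had 10.7 and 15.1 CPM in TRA2B-OE, against 1.47 and 3.32 CPM in Control. Outside cell division and lipids, MXRA8, a membrane protein that alphaviruses use as a receptor, had 19.0 and 20.1 CPM in TRA2B-OE, against 2.48 and 5.49 CPM in Control. CD14, the lipopolysaccharide co-receptor, had 4.23 and 5.52 CPM in TRA2B-OE, against 1.01 and 1.31 CPM in Control. For all of the 12 but FDPS and RUSC1-AS1, at least 1 of the TRA2B-OE libraries lay within the range of the other overexpression libraries.

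The 12 lower genes were POSTN, SYT14, RYR1, PSG4, TSHZ2, ABI3BP, KDR, ATF3, FOLR3, NOD2, KRT17P3 and N4BP2L1. POSTN, which encodes the matrix protein periostin, had 0.842 and 0.0985 CPM in TRA2B-OE, against 15.9 and 8.08 CPM in Control (log2 fold change -4.91 ± 1.11, SE, DESeq2 adjusted p = 2.8e-05, edgeR adjusted p = 0.172). TSHZ2, a zinc finger homeobox gene, had 5.27 and 6.64 CPM in TRA2B-OE, against 25.2 and 32.2 CPM in Control, and was below all 12 other libraries. ATF3, a stress-induced transcription factor, had 2.73 and 1.62 CPM in TRA2B-OE, against 79.3 and 6.71 CPM in Control, so that Control replicates 1-2 stood far above the other 3 libraries. NOD2, a sensor of bacterial cell wall, had 6.26 and 6.07 CPM in TRA2B-OE, against 23.3 and 20.9 CPM in Control. KDR, the VEGF receptor, had 4.78 and 5.36 CPM in TRA2B-OE, against 26.2 and 20.1 CPM in Control; the other endothelial markers CDH5 and VWF were below 0.1 CPM in all 4 libraries. PSG4 belongs to a family of near-identical genes, so its counts are uncertain. KRT17P3 is a pseudogene of KRT17, and reads could be shared with the parent gene, which had 2034 and 784 CPM in TRA2B-OE against 6904 and 9786 CPM in Control.

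**Figure D4:**
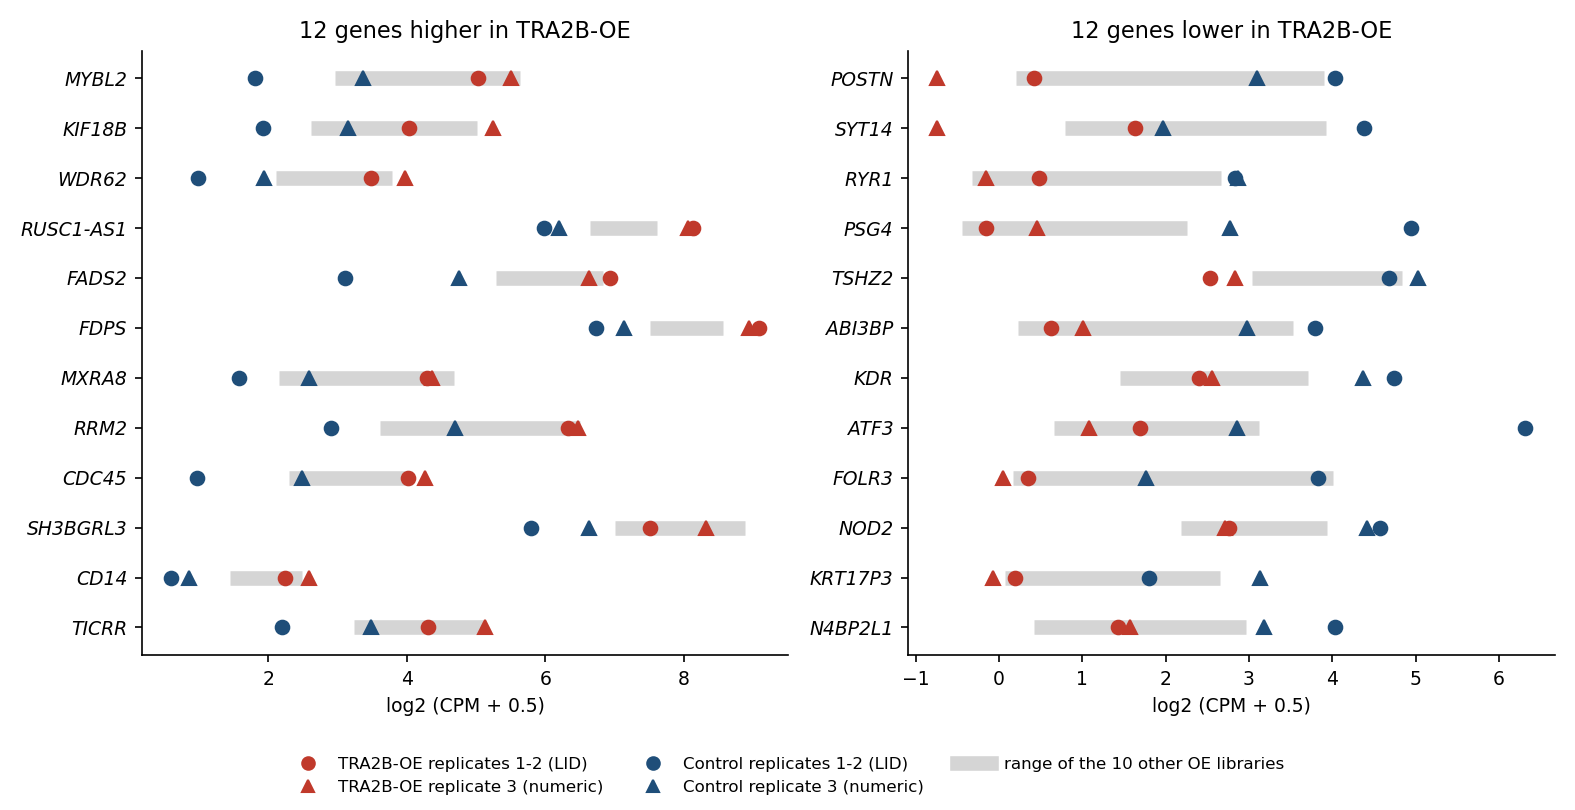
Level on log2(CPM + 0.5) (x axis) of the 12 higher and the 12 lower genes (y axis) in the TRA2B-OE libraries (red), the Control libraries (blue) and the range of the 10 other overexpression libraries (grey bars); circles are LID libraries and triangles numeric ones. FDPS and RUSC1-AS1 lie right of the grey bars and TSHZ2 left of them in both TRA2B-OE libraries.

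Matrix proteases and their inhibitors held 4 members called higher by DESeq2 among 22 tested, where 1.27% of all genes were. The list had opposite signs in the pairs, with a median of 1.20 in the LID pair and -0.33 in the numeric pair. In TRA2B-OE 15 of the 22 were higher in the LID pair and 6 in the numeric pair. TIMP1, a metalloproteinase inhibitor, had 465 and 367 CPM in TRA2B-OE, against 63.9 and 119 CPM in Control (log2 fold change 2.20 ± 0.37, SE, DESeq2 adjusted p = 9.8e-06, edgeR adjusted p = 0.0906). PLAT, the tissue plasminogen activator, had 98.3 and 114 CPM in TRA2B-OE, against 21.8 and 54.7 CPM in Control. MMP1 and MMP10, collagenase and stromelysin, were the others, at 4.03 and 0.433 CPM for MMP1 in TRA2B-OE against 0.0153 and 0.0196 CPM in Control. In the other overexpression libraries TIMP1 ran from 164 to 390 CPM and PLAT from 55.7 to 107 CPM. MMP1 ran there from 0.0180 to 21.5 CPM and MMP10 from 0.0180 to 16.9 CPM, so the MMP1 and MMP10 rises were not particular to TRA2B-OE.
Among mesenchymal genes CDH2, COL6A3 and TNC passed DESeq2; CDH2, the N-cadherin gene, had 11.9 and 4.39 CPM in TRA2B-OE, against 2.06 and 1.63 CPM in Control. The mesenchymal list as a whole had a median of 0.03, and VIM had 1018 and 602 CPM in TRA2B-OE, against 802 and 1156 CPM in Control. Of 17 NRF2 targets 4 passed DESeq2, all higher, among them PGD and TALDO1, enzymes of the pentose phosphate pathway, and AKR1C1. The median of the NRF2 list was 1.03 in the LID pair and -0.04 in the numeric pair, with 15 and 7 of the 17 higher. TALDO1 had 107 and 121 CPM in TRA2B-OE, against 52.0 and 71.6 CPM in Control. The classical target NQO1 had 273 and 130 CPM in TRA2B-OE, against 78.5 and 176 CPM in Control, with overlapping groups. KRT81 and KRT86, hair keratins with closely similar sequences that may share reads, also passed DESeq2. KRT81 had 670 and 260 CPM in TRA2B-OE, against 47.5 and 96.1 CPM in Control. The other overexpression libraries had 261 to 1471 CPM of KRT81 and 1.71 to 12.8 CPM of KRT86. Against those groups the log2 differences were 0.11 and 0.12, so these rises were not particular to TRA2B-OE.

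Genes lower in TRA2B-OE included survival targets of NF-kB. BIRC3, an inhibitor of apoptosis, had 294 and 88.1 CPM in TRA2B-OE, against 744 and 503 CPM in Control (log2 fold change -1.89 ± 0.30, SE, DESeq2 adjusted p = 5.3e-06, edgeR adjusted p = 0.0883). SOD2, the mitochondrial superoxide dismutase, had 1738 and 307 CPM in TRA2B-OE, against 3675 and 1958 CPM in Control. REL, an NF-kB subunit, had 14.2 and 21.5 CPM in TRA2B-OE, against 40.2 and 32.0 CPM in Control. These were the 3 of 28 list members that passed DESeq2 on the lower side, 8 had both TRA2B-OE libraries below both Control libraries, and CSF2, at 1.40 and 0.0197 CPM in TRA2B-OE against 0 and 0.0196 CPM in Control, passed on the higher side. CLDN1, a tight junction claudin, was the 1 of 22 junction genes called, at 28.4 and 13.99 CPM in TRA2B-OE against 77.1 and 168 CPM in Control. TGFBI, a secreted matrix protein induced by TGF-beta, had 3899 and 7420 CPM in TRA2B-OE, against 9360 and 11408 CPM in Control (DESeq2 adjusted p = 0.0316). Of 33 interferon-stimulated genes 11 had both TRA2B-OE libraries below both Control libraries and 2 had both above. IFI27 was the 1 that passed DESeq2. Over all genes tested, 18.2% had both below and 18.3% both above, and DESeq2 called 0.853% lower and 1.27% higher.

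Several gene lists had opposite signs in the 2 pairs. Of 28 NF-kB and cytokine genes, 17 were higher in TRA2B-OE in the LID pair and 2 in the numeric pair, with medians of 0.28 and -1.06; the fitted median was -0.26, and 0.12 without TRA2B-OE replicate 3. The chemokine CXCL1 had 251 and 0.492 CPM in TRA2B-OE, against 14.5 and 5.77 CPM in Control, and CXCL8 had 104 and 0.118 CPM in TRA2B-OE, against 6.26 and 1.26 CPM in Control. TRA2B-OE replicates 1-2 were thus the highest and replicate 3 the lowest of the 4 libraries for both. Cornified envelope and kallikrein genes were higher in 21 of 26 in the LID pair and in 4 of 26 in the numeric pair. S100A9, a subunit of calprotectin, had 1084 and 72.9 CPM in TRA2B-OE, against 50.4 and 302 CPM in Control. Integrins were higher in 10 of 12 in the LID pair and in 2 of 12 in the numeric pair, and immediate early and ERK feedback genes in 19 and 6 of 26. DUSP6, a phosphatase that ERK signalling induces, had 308 and 17.7 CPM in TRA2B-OE, against 16.8 and 130 CPM in Control. The 13 mitochondrially encoded genes ran the other way, lower in all 13 in the LID pair and higher in all 13 in the numeric pair. FN1, fibronectin, had 847 and 2.74 CPM in TRA2B-OE, against 17.0 and 11.6 CPM in Control. The difference between the pairs was not tested, since each pair holds 1 library a group. The cornified list had a fitted median of 0.80, with pair medians of 0.68 and -1.46.

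Against the mean of the 4 other overexpression groups, edgeR called 0 genes (1353 at an unadjusted p under 0.05) and DESeq2 called 20 higher (0.0938%) and 39 lower (0.183%). The Control libraries have no weight in this contrast, but they enter the fit that gives its spread. PLLP, which encodes the membrane protein plasmolipin, had 202 and 432 CPM in TRA2B-OE, against 65.7 to 110 CPM in the other overexpression libraries and 73.6 and 103 CPM in Control. Its log2 fold change against the other groups was 1.80 ± 0.20 (SE, DESeq2 adjusted p = 1.1e-07, edgeR adjusted p = 0.0738), and 1.17 without TRA2B-OE replicate 3. DPYSL3, a cytoskeletal regulator, had 14.4 and 17.3 CPM in TRA2B-OE, against 2.32 to 12.2 CPM in the other overexpression libraries. TBX3, a transcription factor of mammary development, had 15.3 and 10.8 CPM in TRA2B-OE, against 5.14 to 8.82 CPM there. On the lower side, SLC39A1, a zinc importer, had 140 and 131 CPM in TRA2B-OE, against 170 to 218 CPM in the other overexpression libraries and 258 and 247 CPM in Control. CERS4, a ceramide synthase, had 1.67 and 1.75 CPM in TRA2B-OE, against 4.33 to 18.7 CPM there, and RNF165 and NDRG2 were likewise below all 12 other libraries. PEAR1 was below the other overexpression libraries, at 4.92 and 3.74 CPM in TRA2B-OE against 5.23 to 17.4 CPM, but overlapped Control at 4.09 and 4.81 CPM. Of the 21326 genes tested, 185 lay above and 159 below all 12 other libraries in both TRA2B-OE libraries. No count for other pairs of libraries is given, so these counts do not show what sets TRA2B-OE apart.

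Genes next to FDPS on chromosome 1 were also higher in TRA2B-OE, in replicate 3 above all. The stretch from FLAD1 to PRCC was chosen after its values were seen, so it is given with no test; among genes with a mean of at least 5 CPM it holds 50. Set against the mean of the other overexpression libraries, 48 of 50 were higher in TRA2B-OE replicate 3, with a median log2 difference of 0.73, and 41 were above every one of those libraries, where 5697 and 1370 of the 11558 genes at this level were. In TRA2B-OE replicates 1-2, 31 of 50 were higher, with a median of 0.05, and 7 were above every one of them, where 5631 and 1273 of the 11558 genes were. The median over the 10 genes before FLAD1 was 0.45 in replicate 3, and over the 10 genes after PRCC it was -0.10. Against Control, DESeq2 called 10 of the 50 higher and 0 lower, against 202 of the 11558 higher (1.75%). CCT3, a chaperonin subunit, had 722 and 706 CPM in TRA2B-OE, against 290 and 375 CPM in Control, and GPATCH4 had 87.8 and 83.3 CPM in TRA2B-OE, against 47.0 and 33.6 CPM in Control. FLAD1, at the edge, had 71.4 and 138 CPM in TRA2B-OE, against 46.3 and 51.5 CPM in Control. FDPS was high in both TRA2B-OE libraries, whereas the stretch around it was high in replicate 3; the part of the stretch in the FDPS value of replicate 3 was not tested.

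**Figure D5:**
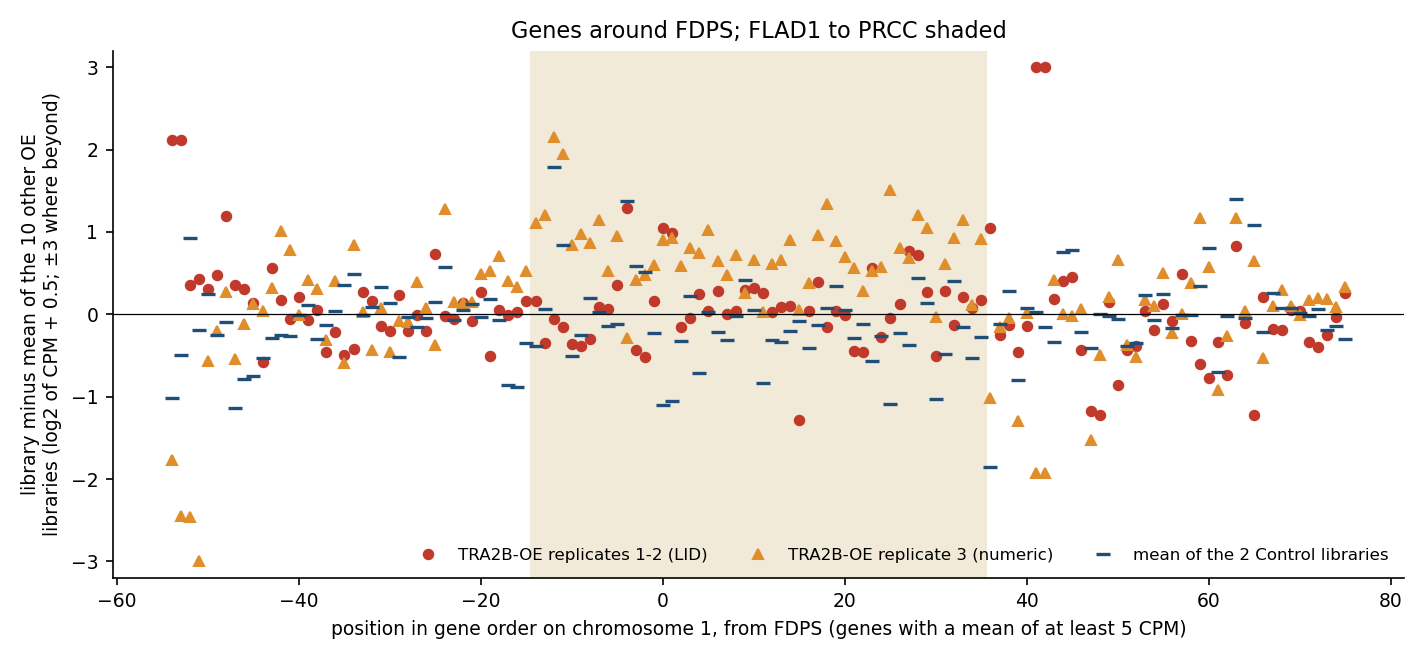
Log2 difference on CPM + 0.5 (y axis) between a library and the mean of the 10 other overexpression libraries, for genes in their order along chromosome 1 (x axis, counted from FDPS); circles are TRA2B-OE replicates 1-2, triangles TRA2B-OE replicate 3, dashes the mean of the Control libraries, and FLAD1 to PRCC is shaded. In the shaded stretch the triangles have a median of 0.73 and the circles of 0.05.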

How the data were processed

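Per the submitters' processing notes, reads were trimmed with Trimmomatic 0.36, aligned with STAR 2.5.1b to GRCh37 and counted with featureCounts of Subread; the authors deposited whole-number counts per gene and sample. The sources used here do not say whether strand or read pairs were used in counting. Lanes of a shared library ID were summed, giving 14 libraries of 42959069 to 121601376 counts; such lanes differed by a mean chi-square of 3.82 a gene in TRA2B-OE and 9.06 in Control, against 276 and 182 for lane 1 and replicate 3. GENCODE 29 named 55910 of 60252 gene IDs, and the other 4342 held at most 0.192% of a library's counts. HIST1H2BG and PECAM1 were not matched.

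The main test was edgeR 4.0.16 quasi-likelihood (R 4.3.3) on counts of all 14 libraries, with group and label set as terms, TMM factors, edgeR's expression filter with a minimum count of 10 (21326 genes) and Benjamini-Hochberg adjustment at 0.05. DESeq2 1.42.0 and limma-voom (limma 3.58.1) were alternatives; DESeq2 gave no adjusted p for 1668 genes. The scripts were tested on simulated data. Differences within a pair used log2(CPM + 0.5).

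The groups, gene lists and alternatives were chosen with earlier results of these data known, and the fatty acid list after these values were seen. Named genes are TRA2B and the SR family; the 12 largest differences in each direction among called genes with a mean of at least 3 CPM and non-overlapping groups, ranked by the smaller of the pair differences; up to 4 called members of each list, or else 2 by p; marker genes; and the same rule against the other overexpression groups. Genes of sterol, fatty acid, cytokine and other lists named beyond that rule, and the genes next to FDPS, were chosen after their values were seen (HMGCS1, SQLE, DHCR7, INSIG1, SREBF2, LSS, STARD4, FADS1, SCD, MKI67, VIM, NQO1, FN1, CXCL1, CXCL8, S100A9 and DUSP6). A few genes that the rule or the lists would name are not reported here.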

Additional observations from a re-analysis of the deposited data

How the results depend on the processing

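The count of called genes depended on the tool and the libraries. The 2 higher and 0 lower genes became 0 and 0 with no replicate block and 0 and 0 with the replicate block on only the 4 libraries compared, which leaves fewer libraries for the spread; limma-voom called 34 and 21, no low-count filter 9 and 3, a mean of at least 1 CPM 6 higher, and the 18 samples as separate replicates, which count lanes as replicates, 1676 and 1221. DESeq2 called 270 and 182. Leaving out 1 library of the comparison gave 0 to 14 higher and 0 to 0 lower genes with edgeR, 14 of them without TRA2B-OE replicate 3 and 0 without any other; with DESeq2 (added after the data were seen) it gave 16 to 464 higher and 27 to 293 lower, the lowest without Control replicates 1-2. Leaving out SRSF2-OE replicate 1, alone or with TRA2B-OE replicate 3, kept 2 and 0. Against the other overexpression groups edgeR's 0 and 0 became 20 and 39 with DESeq2, 69 and 59 with 18 samples, 1 higher with no low-count filter, 0 to 1 higher leaving out 1 library of TRA2B-OE or Control, and 40 higher without SRSF2-OE replicate 1. The TRA2B log2 fold change of 0.71 stayed positive in every setting run, from 0.53 without TRA2B-OE replicates 1-2 to 0.90 without replicate 3; it passed the threshold with DESeq2 (0.72) and with 18 samples (0.79). FDPS and RUSC1-AS1 lost their call with no replicate block (adjusted p = 0.0633 for both), with the 4 libraries alone (0.665) and without either Control library or TRA2B-OE replicates 1-2 (0.0729 to 0.383), keeping log2 fold changes of 1.75 to 2.13. The difference between LID and numeric library in TRA2B-OE had r = 0.017 across genes with that in Control; over the 6 pairs of the 4 groups with both sets r ran from -0.06 to 0.57 and was over 0.1 in 4, so the sets differ alike in some groups and pairing was not established for this comparison. Over the named genes and settings against Control, 1714 of 1916 values stayed on their side of the threshold, 192 newly passed it, 10 no longer did, and 0 were called in reverse; 48 values of 20 genes, none of them called, had the other sign.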

Other observations

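Genes of chromosome 20 were lower in TRA2B-OE than in the other overexpression groups, with a median log2 difference of -0.31 over 319 genes with a mean of at least 5 CPM, while the medians of the other 21 autosomes ran from -0.09 to 0.05. Against Control the chromosome 20 median was 0.05. Relative to the mean of the Control libraries and to the other chromosomes, the median was 0.16 and -0.06 in TRA2B-OE, against 0.07 to 0.57 in the other overexpression libraries. This pattern was seen after the data were examined and was not tested.

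DCN, which encodes the matrix proteoglycan decorin, had 363 and 6.30 CPM in TRA2B-OE, against 413 and 126 CPM in Control. CYP19A1, the aromatase gene, had 3.00 and 0.0197 CPM in TRA2B-OE, against 0.0535 and 0 CPM in Control, so its signal lay in TRA2B-OE replicates 1-2. TGFB2 had 28.9 and 0.315 CPM in TRA2B-OE, against 1.15 and 0.314 CPM in Control, and passed DESeq2 (adjusted p = 0.0155) with overlapping groups.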
